A study of Mus musculus with 6 samples.

Results

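The Wnt pathway genes described here are 65 genes of Wnt ligands, their receptors, their secreted and membrane-bound modulators, and the intracellular mediators and feedback genes, out of 19938 genes measured on arrays. They were chosen by gene symbol. Of 66 RefSeq genes of the mouse assembly GRCm38.p6 that the same symbols pick out, Tcf7 was not analysed here. The samples were 3 Nkx2-1 high samples (GFP-positive) and 3 Nkx2-1 low samples (GFP-negative), sorted after 14 days of differentiation of mouse embryonic stem cells. Both groups came from cells of the W4/129S6 background with green fluorescent protein (GFP) as a knock-in reporter of Nkx2-1, which encodes a transcription factor of lung, thyroid and ventral forebrain, and the sort on that reporter was the only difference between them that the labels give. The extraction protocol calls the samples of a group biological replicates. All came from 1 background, and no tissue of an embryo was included.

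Wnt proteins are secreted lipid-modified signals. In the canonical branch they bind Frizzled receptors together with Lrp5 or Lrp6, which stabilises β-catenin and lets it act with Tcf and Lef factors on target genes; in the non-canonical branches they act through receptors such as Ror2 on cell polarity and calcium. Secreted Sfrp, Frzb and Wif1 proteins hold Wnt ligands, and some Dkk proteins, Dkk1 among them, act on Lrp5 and Lrp6. In the mouse foregut, Wnt2 and Wnt2b from the surrounding mesenchyme are needed for the Nkx2-1-positive lung field.

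Values are log2 expression. A difference is the Nkx2-1 high mean less the Nkx2-1 low mean, ± its standard error. A gene "rose" or "fell" when Nkx2-1 high was the upper or the lower group and limma's adjusted p, taken over all 19938 genes, was under 0.05. The 95th percentile of olfactory and vomeronasal receptor genes, a log2 value of 4.30, was taken as background. Levels of different genes come from different probes and were not compared. Nkx2-1 itself averaged 7.72 ± 0.08 in the Nkx2-1 high group against 5.33 ± 0.09 in the Nkx2-1 low group (SD, n = 3 each), which follows the sort. Of 10 measured lung and thyroid markers 3 rose, Pax8, Hhex and Sftpa1, and Sftpc, Scgb1a1, Scgb3a2, Tg and Tshr were not above background. Of 11 endoderm and epithelial markers Epcam fell, and Sox17, Cldn7 and Esrp1 were not above background. Pairs of samples within a group had r of 0.994 to 0.996 over genes, and pairs across the groups 0.988 to 0.991.

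Of the 65 Wnt genes, 9 fell and 2 rose. The 9 were the ligand gene Wnt5a, the receptor gene Fzd2, the R-spondin receptor gene Lgr5, the antagonist genes Sfrp2, Frzb, Dkk1, Dkk2 and Dkk3, and Lef1. The 2 were the receptor genes Fzd5 and Fzd6. Among all genes, 6.0% were called, 2.90% as risen and 3.09% as fallen, against 16.9% of the Wnt genes, 3.08% as risen and 13.8% as fallen. Of the 65, 55 were above background in both groups, 5 in 1 group and 5 in neither, and all 11 called genes belonged to the 55. Among all genes above background in both groups 8.11% were called. The median difference over the 65 was -0.06, against -0.01 over all genes. Of the 65 differences 43 were negative (66.2%), against 52.4% of all genes. The groups did not overlap for 20 of the 65 (30.8%), against 24.7% of all genes. All Nkx2-1 high values were the upper ones in 4 of the 65 (6.15%), against 11.2% of all genes, and the lower ones in 16 of the 65 (24.6%), against 13.5% of all genes. Before adjustment, at p under 0.05, 8.57% of all genes were higher and 10.4% lower in Nkx2-1 high. In sorted bulk samples, fewer cells of a type and less RNA per cell cannot be told apart. An exact two-sided permutation test of 1 gene cannot go below p = 0.1 with 3 samples against 3.

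**Figure D1:**
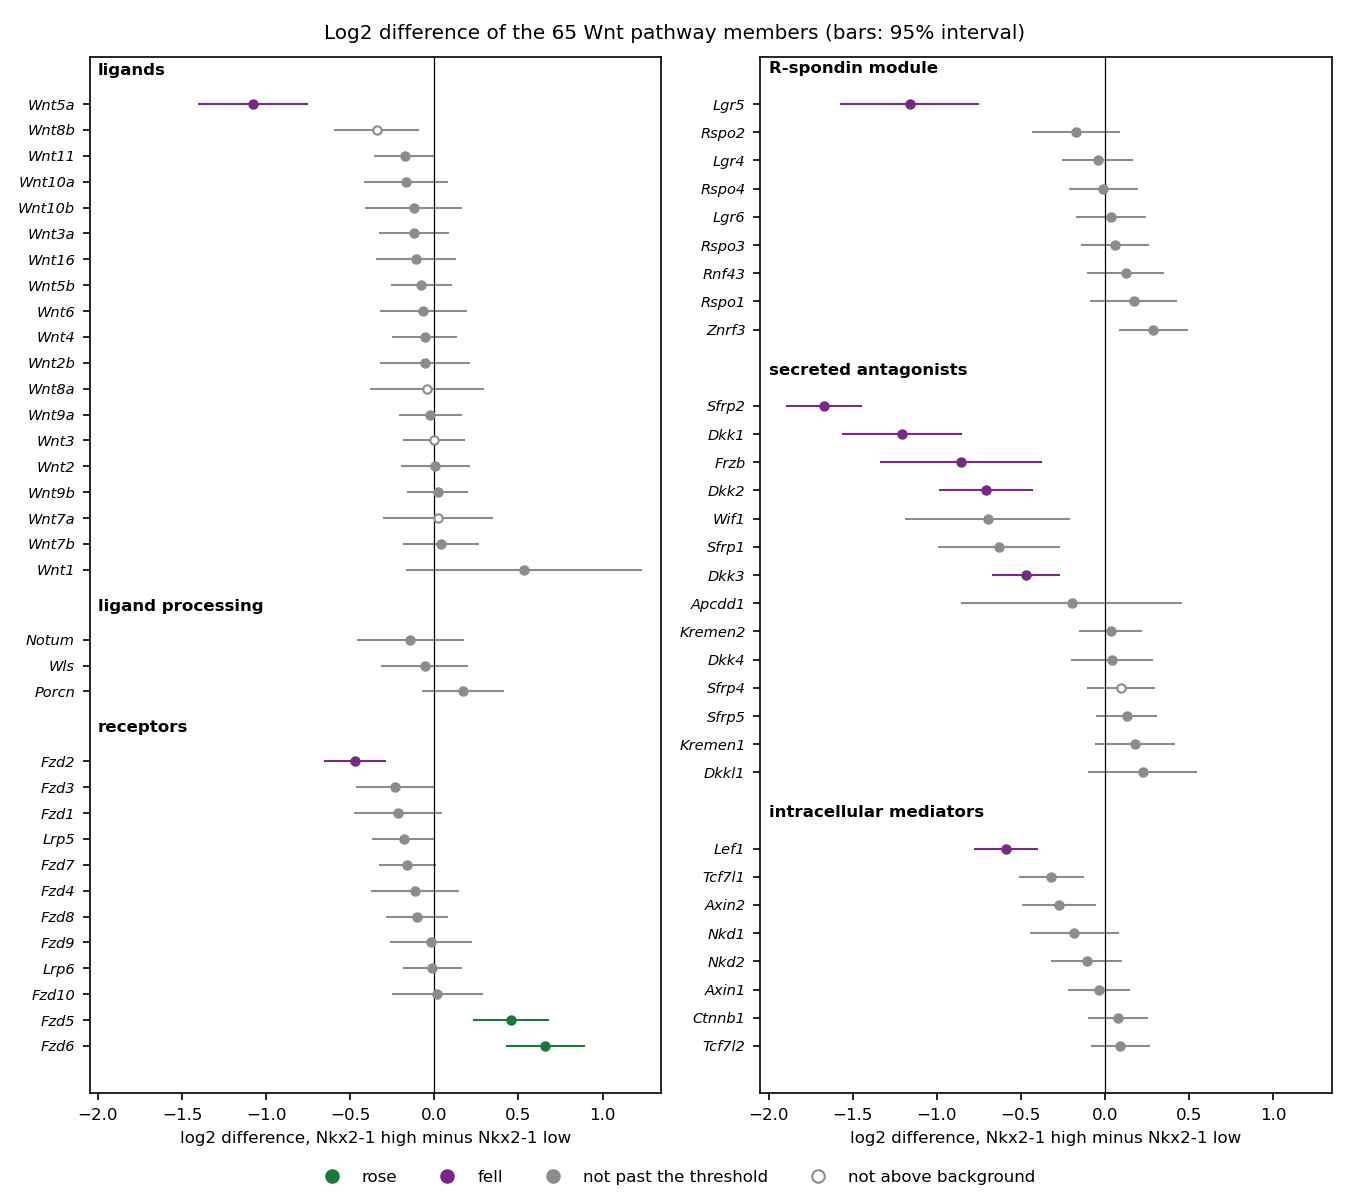
Log2 difference of each of the 65 Wnt genes (horizontal axis, Nkx2-1 high minus Nkx2-1 low) with its 95% interval from limma, grouped by role; open circles mark genes not above background in either group. The 9 genes that fell lie between -1.67 (Sfrp2) and -0.47, with 5 of them among the secreted antagonists, and the 2 that rose, Fzd5 and Fzd6, are receptors.

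The secreted antagonists held the largest differences. The group of 14 genes also holds Apcdd1, whose protein is membrane-bound, and the co-receptor gene Kremen1. Of the 14 genes 5 fell (35.7%) and 0 rose by limma, against 3.09% and 2.90% of all genes, and the median difference was -0.33. Before adjustment, at p under 0.05, 7 were lower and 0 higher, against 10.4% and 8.57% of all genes. Sfrp2, which encodes a secreted Frizzled-related protein that binds Wnt ligands, had 7.54, 7.54 and 7.40 in Nkx2-1 high replicates 1 to 3, against 9.33, 9.18 and 8.98 in Nkx2-1 low. Every Nkx2-1 high sample lay more than 1 log2 unit under every Nkx2-1 low sample. Sfrp2 was 3.18-fold lower in Nkx2-1 high (-1.67 ± 0.10, adjusted p = 2.85e-05), the largest difference among the 65 genes.

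Dkk1, the gene of the Lrp5 and Lrp6 antagonist and itself a β-catenin target, had 6.02, 5.98 and 6.30 in Nkx2-1 high and 7.48, 7.54 and 6.92 in Nkx2-1 low. The replicates numbered 3 lay closest to each other, and the groups did not overlap. The difference was -1.21 ± 0.16 (2.31-fold lower, adjusted p = 0.00224). Dkk2, a relative that also binds Lrp6, had 6.25, 6.53 and 6.74 in Nkx2-1 high and 7.22, 7.08 and 7.34 in Nkx2-1 low. Again no value of one group entered the range of the other (-0.71 ± 0.12, 1.63-fold lower, adjusted p = 0.00982). Dkk3 is a divergent member of the family, and action on Lrp5 or Lrp6 is not assumed for it here. It had 6.95, 6.74 and 7.0 in Nkx2-1 high and 7.45, 7.34 and 7.32 in Nkx2-1 low. Its fall was smaller (-0.47 ± 0.09, 1.39-fold, adjusted p = 0.0148), and leaving out Nkx2-1 high replicate 2 gave 0.0632, or Nkx2-1 low replicate 1, 0.0576. Dkk4 did not pass (0.04 ± 0.11).

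Frzb, the gene of a Frizzled-related antagonist known from cartilage and limb mesenchyme, had 7.17, 7.06 and 6.31 in Nkx2-1 high and 7.96, 7.73 and 7.41 in Nkx2-1 low. Nkx2-1 high replicate 3 lay well under the other two of its group. Frzb was 1.81-fold lower (-0.86 ± 0.21, adjusted p = 0.0475), close to the threshold, and leaving out Nkx2-1 high replicate 2 or 3 gave 0.0787 or 0.0581, and leaving out Nkx2-1 low replicate 1 or 2 gave 0.153 or 0.136. It was also 0.0514 with median-centred arrays and 0.0521 with a mean-variance trend and robust eBayes.

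Sfrp1 and Wif1 missed the threshold with differences nearly as large as that of Dkk2. Sfrp1 had 6.11, 5.79 and 5.51 in Nkx2-1 high and 6.63, 6.50 and 6.16 in Nkx2-1 low (-0.63 ± 0.16, adjusted p = 0.0514). Every Nkx2-1 high sample was under every Nkx2-1 low sample, and leaving out Nkx2-1 high replicate 1 gave 0.0262, as leaving out Nkx2-1 low replicate 3 gave 0.0279. Wif1, the gene of Wnt inhibitory factor, had 6.24, 6.19 and 7.02 in Nkx2-1 high and 7.01, 7.0 and 7.53 in Nkx2-1 low. The 2 replicates numbered 3 were the highest of their groups, and Nkx2-1 high replicate 3 reached the Nkx2-1 low range (-0.70 ± 0.22, adjusted p = 0.107, and 0.00918 without that sample).

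The other antagonists did not pass. Apcdd1, the gene of a membrane-bound inhibitor, had 7.53, 7.69 and 8.79 in Nkx2-1 high and 7.97, 8.05 and 8.58 in Nkx2-1 low. Here too both replicates numbered 3 stood above the rest, and the groups overlapped (-0.20 ± 0.29). Kremen1, the gene of a Dkk1 co-receptor, differed by 0.18 ± 0.11. Dkkl1 exceeded background in Nkx2-1 high alone, by a bound of at least 1.10-fold, and did not pass (adjusted p = 0.471). Sfrp4 was not above background in either group.

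**Figure D2:**
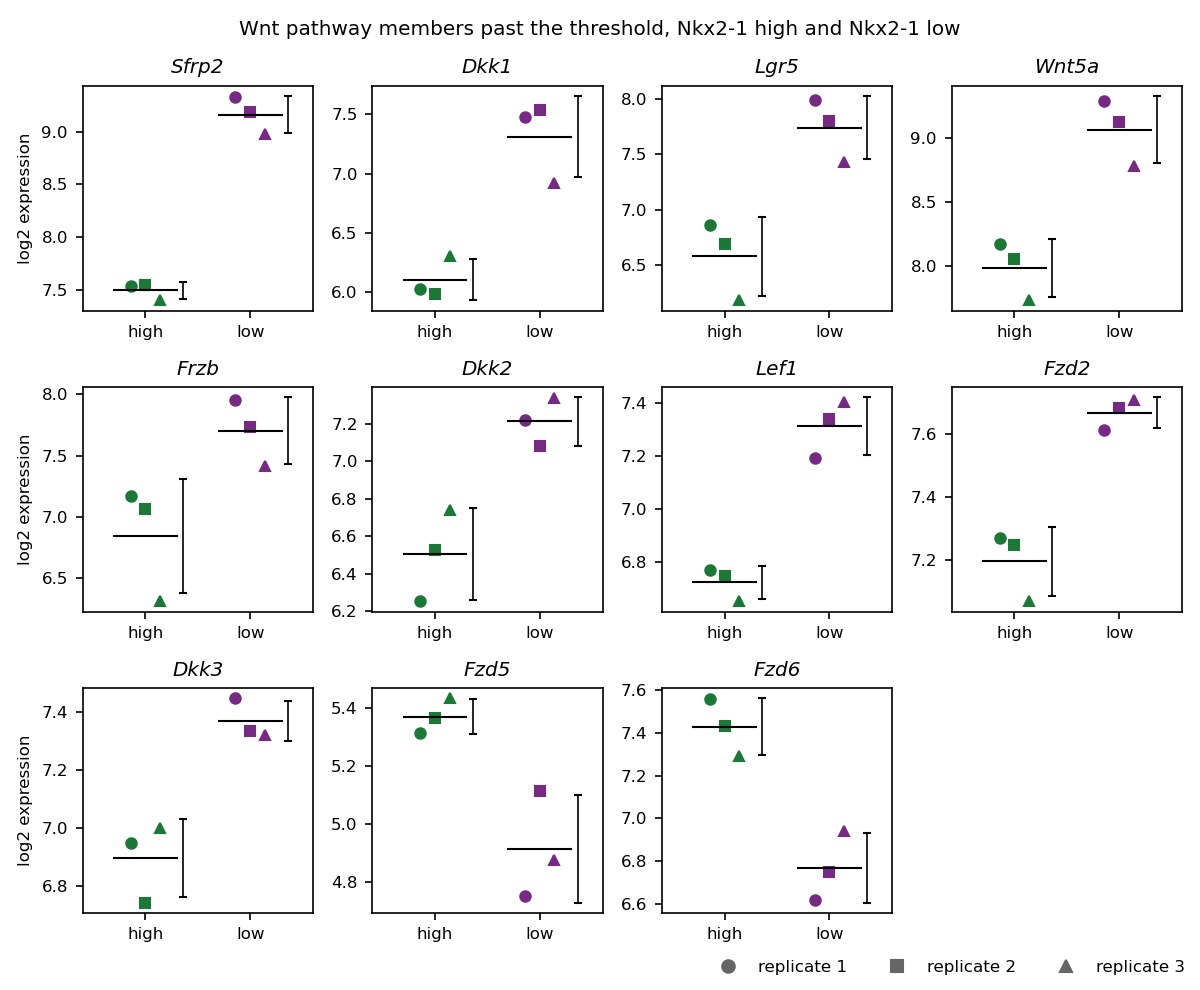
Log2 expression of the 11 called Wnt genes in each sample, with Nkx2-1 high at the left and Nkx2-1 low at the right of each panel, and a vertical scale of its own in each panel; horizontal lines are group means and bars are ± SD (n = 3 each). Sfrp2 is split most widely (7.40 to 7.54 in Nkx2-1 high, 8.98 to 9.33 in Nkx2-1 low), and Fzd5 and Fzd6 are the panels with Nkx2-1 high on top.

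Some markers of mesenchyme, neurons and neural crest fell beside the 5 antagonist genes, Wnt5a, Lgr5 and Lef1, and some endothelial markers rose. Of 12 mesenchyme markers 8 fell and 0 rose by limma (9 lower and 0 higher at p under 0.05 before adjustment). Their mean log2 level ran from 7.06 to 7.42 in Nkx2-1 high samples and from 8.13 to 8.37 in Nkx2-1 low samples, and each of the 12 exceeded background in 1 group or both. Of 9 neuronal markers 6 fell, with means from 4.71 to 5.05 in Nkx2-1 high and 5.70 to 5.77 in Nkx2-1 low, and each of the 9 did so too. Of 8 neural crest markers 3 fell, Tfap2b, Snai2 and Msx1. The list means ran from 5.73 to 5.91 in Nkx2-1 high and 6.18 to 6.33 in Nkx2-1 low. Differences were negative for 5 of the 8 and positive for 3. The 3 were Sox10 (0.16 ± 0.08), Foxd3 (0.03 ± 0.10) and Ets1 (0.17 ± 0.13), none of them called. Each of the 8 exceeded background in 1 group or both. The mean over the 14 antagonist genes ran from 5.82 to 5.98 in Nkx2-1 high and 6.24 to 6.31 in Nkx2-1 low. Of 6 endothelial markers 3 rose, Tek, Flt4 and Eng. The list means ran from 5.15 to 5.33 in Nkx2-1 high and 4.68 to 4.79 in Nkx2-1 low. Pecam1 was higher but did not pass (0.33 ± 0.10, adjusted p = 0.0985). Kdr (-0.08 ± 0.09) and Cdh5 (-0.17 ± 0.10) had negative differences without a call, and Cdh5 was not above background. The marker lists were chosen with earlier results of these data known, so their counts do not test for enrichment. The part of these cell types in the Wnt gene differences was not tested.

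**Figure D3:**
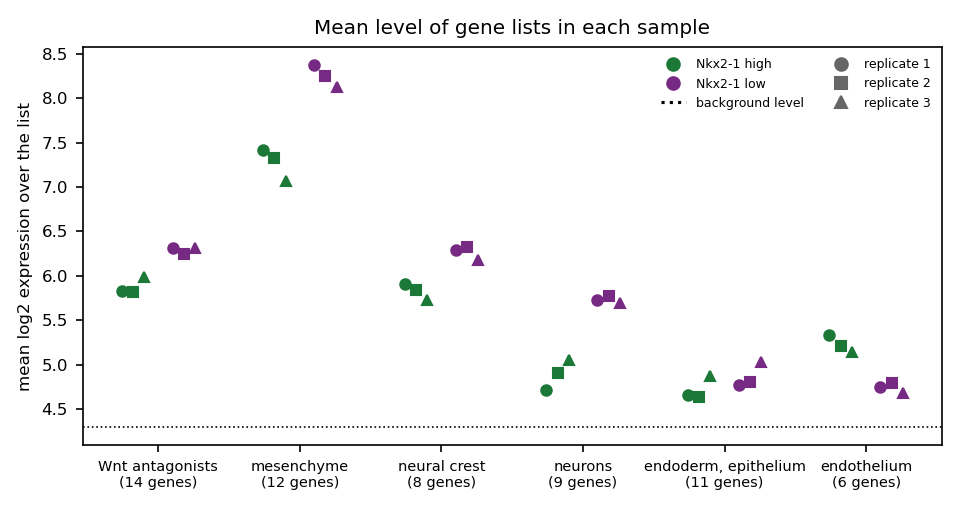
Mean log2 expression over the genes of 6 lists in each of the 6 samples, with Nkx2-1 high (green) left of Nkx2-1 low (purple), symbols for replicate numbers and a dotted line at the background level of 4.30; levels of different lists are not comparable. The Wnt antagonist list and the lists of mesenchyme, neural crest and neurons are lower in all 3 Nkx2-1 high samples than in any Nkx2-1 low sample, and the endothelial list is higher.

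Promoter sequence was read for the antagonist genes that fell, apart from Dkk3, for which no promoter was given. It was also read for Sp5, a target gene described further on that rose. The TCF/LEF core CTTTGA, on either strand, was searched in the 250 bases before each start in RefSeq (GRCm38.p6), where 13.8% of all 32851 promoters hold it. Promoters were given for 42 of the 65 Wnt genes. Of the 42, 6 hold the core (14.3%, against 15.8% of all genes with a promoter), among them Dkk1, Frzb and Lef1 of the 5 genes that fell and have a promoter there. In Lef1 it lies before 1 of 4 listed starts, and the promoters of Dkk2 and Sfrp2, which also fell, have no match. The 4 promoters below are printed because Dkk1 and Frzb fell and Sp5 rose with the same core present, whereas Sfrp2, with the largest difference, has no match. They are Dkk1 (chr19:30549497-30549746, minus strand), Frzb (chr2:80447397-80447646, minus strand), Sp5 (chr2:70474673-70474922, plus strand) and Sfrp2 (chr3:83766071-83766320, plus strand), with the core or its reverse complement TCAAAG in capitals.
Dkk1: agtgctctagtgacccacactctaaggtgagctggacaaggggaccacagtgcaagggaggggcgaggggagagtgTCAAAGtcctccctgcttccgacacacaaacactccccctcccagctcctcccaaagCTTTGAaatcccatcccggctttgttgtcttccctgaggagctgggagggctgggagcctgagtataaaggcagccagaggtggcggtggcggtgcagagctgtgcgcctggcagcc
Frzb: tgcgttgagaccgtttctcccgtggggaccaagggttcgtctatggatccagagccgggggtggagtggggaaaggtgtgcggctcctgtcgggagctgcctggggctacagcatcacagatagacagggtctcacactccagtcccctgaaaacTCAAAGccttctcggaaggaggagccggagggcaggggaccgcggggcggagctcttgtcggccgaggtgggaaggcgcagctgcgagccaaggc
Sp5: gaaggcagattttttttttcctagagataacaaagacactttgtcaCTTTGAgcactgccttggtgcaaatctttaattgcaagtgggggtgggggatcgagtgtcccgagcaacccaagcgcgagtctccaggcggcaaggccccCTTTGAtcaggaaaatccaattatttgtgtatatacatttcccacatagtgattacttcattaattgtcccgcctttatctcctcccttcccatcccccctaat
Sfrp2: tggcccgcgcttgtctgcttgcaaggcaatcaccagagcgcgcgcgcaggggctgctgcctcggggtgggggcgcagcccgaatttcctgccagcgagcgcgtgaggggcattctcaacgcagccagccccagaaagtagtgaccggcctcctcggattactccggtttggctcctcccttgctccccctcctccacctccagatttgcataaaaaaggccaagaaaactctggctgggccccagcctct
The cores of Dkk1 begin 174 and 117 bases before the start, that of Frzb 95 bases before it and those of Sp5 204 and 104 bases before it. CTCAAG, a core bound by Nkx2-1, or its reverse complement lies in a promoter of 5 of the 42 Wnt genes (11.9%), none of them called, against 15.2% of all genes with a promoter. A match is a description of these letters and not a bound site.

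Among the ligands, Wnt5a alone of 19 was called (5.26%, against 6.0% of all genes). Wnt5a, which encodes the main non-canonical ligand of mesenchyme, had 8.17, 8.06 and 7.73 in Nkx2-1 high and 9.29, 9.12 and 8.78 in Nkx2-1 low. The sample numbered 3 was the lowest of each group, and the groups stood apart by more than the range within either. Wnt5a was 2.11-fold lower in Nkx2-1 high (-1.08 ± 0.15, adjusted p = 0.00259). At an unadjusted p under 0.05, 0 of the 19 ligand genes were higher and 2 were lower, Wnt5a and Wnt8b, the second of which was not above background in either group; 2 of 19 is close to the share of lower genes over all genes.

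None of the other ligand genes passed. Wnt2 averaged 4.55 ± 0.15 in Nkx2-1 high, against 4.55 ± 0.05 in Nkx2-1 low (SD, n = 3 each), next to background, and its difference had a 95% interval of -0.20 to 0.21. Wnt2b was above background only in Nkx2-1 low, where it averaged 4.31. Wnt4 (-0.06 ± 0.09), Wnt5b (-0.08 ± 0.08), Wnt9a (-0.02 ± 0.08) and Wnt7b, a ligand of lung epithelium (0.04 ± 0.10), had intervals that included 0. Wnt11, another non-canonical ligand gene, was lower in all 3 Nkx2-1 high samples (-0.18 ± 0.08) but did not pass (adjusted p = 0.280). Wnt1 had 4.30, 4.35 and 5.67 in Nkx2-1 high and 4.23, 4.0 and 4.50 in Nkx2-1 low. Replicate 3 of Nkx2-1 high stood apart from the other 5 samples. The Nkx2-1 low mean was not above background, so no fold is given. The Nkx2-1 high mean lay 1.39-fold above the background level, carried by replicate 3, and Wnt1 did not pass (adjusted p = 0.417). The 95% interval of its difference, from -0.17 to 1.23, included 0. Wnt3, Wnt7a, Wnt8a and Wnt8b were not above background in either group. Several of these genes lie next to each other in the genome, Wnt6 with Wnt10a, Wnt3a with Wnt9a, Wnt3 with Wnt9b and Wnt1 with Wnt10b among protein-coding genes of GRCm38.p6, and no gene of these pairs was called.

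Genes that process the ligands did not differ past the threshold. Wls, whose protein carries Wnt ligands to the cell surface, averaged 7.79 ± 0.15 in Nkx2-1 high, against 7.85 ± 0.19 in Nkx2-1 low (SD, n = 3 each), with a 95% interval of the difference from -0.32 to 0.20. Porcn, which encodes the enzyme that attaches the lipid, differed by 0.17 ± 0.11, and Notum, which encodes the enzyme that removes it, by -0.14 ± 0.14.

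The Frizzled genes moved in both directions. Of 10, 2 rose (20%) and 1 fell (10%), against 2.90% and 3.09% of all genes. These shares rest on 2 genes and 1 gene. Fzd6 had 7.56, 7.43 and 7.29 in Nkx2-1 high and 6.62, 6.75 and 6.94 in Nkx2-1 low. Values of Nkx2-1 high were all above those of Nkx2-1 low, with the samples numbered 3 nearest to each other, and Fzd6 was 1.58-fold higher (0.66 ± 0.11, adjusted p = 0.00591). Fzd5 had 5.31, 5.36 and 5.43 in Nkx2-1 high and 4.75, 5.12 and 4.88 in Nkx2-1 low. It was 1.37-fold higher (0.46 ± 0.10, adjusted p = 0.0282). Fzd2 had 7.27, 7.25 and 7.07 in Nkx2-1 high and 7.61, 7.68 and 7.71 in Nkx2-1 low. Each group was tight, and Fzd2 was 1.39-fold lower in Nkx2-1 high (-0.47 ± 0.08, adjusted p = 0.00982, and 0.0608 without both samples numbered 3). For Fzd5, leaving out Nkx2-1 high replicate 1, 2 or 3 gave 0.0641, 0.0961 or 0.0761, and Nkx2-1 low replicate 1 or 3 gave 0.0878 or 0.0826.

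The remaining receptor genes did not pass. Fzd1 differed by -0.22 ± 0.12, Fzd3 by -0.23 ± 0.10 and Fzd7 by -0.16 ± 0.08. The co-receptor gene Lrp6 averaged 7.95 ± 0.08 in Nkx2-1 high, against 7.96 ± 0.05 in Nkx2-1 low (SD, n = 3 each), and the 95% interval of the difference, from -0.19 to 0.16, held only values smaller in size than the difference of any called Wnt gene. Lrp5 was lower in all 3 Nkx2-1 high samples by a small amount (-0.18 ± 0.08, adjusted p = 0.283).

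In the R-spondin module, whose secreted proteins bind Lgr receptors and keep Rnf43 and Znrf3 from removing Frizzled receptors, 1 of 9 genes was called. That share is 11.1%, against 6.0% of all genes, and rests on 1 gene. Lgr5, an R-spondin receptor gene and a β-catenin target in stem cells of the gut and elsewhere, had 6.87, 6.69 and 6.18 in Nkx2-1 high and 7.99, 7.80 and 7.43 in Nkx2-1 low. The samples numbered 3 were the lowest of each group, and the groups did not overlap. The difference was -1.16 ± 0.18 (2.24-fold lower, adjusted p = 0.00568). Lgr4, a receptor gene of wide expression, averaged 6.97 ± 0.15 in Nkx2-1 high, against 7.01 ± 0.07 in Nkx2-1 low (SD, n = 3 each). Znrf3, which encodes a ubiquitin ligase of the feedback loop, had 6.65, 6.72 and 6.86 in Nkx2-1 high and 6.48, 6.33 and 6.56 in Nkx2-1 low. Its values were higher in all 3 Nkx2-1 high samples, and it did not pass (0.29 ± 0.09, adjusted p = 0.112). Differences of the R-spondin genes were 0.17 ± 0.12 for Rspo1, -0.17 ± 0.12 for Rspo2, 0.06 ± 0.09 for Rspo3 and -0.01 ± 0.09 for Rspo4.

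Of the 8 intracellular mediators and feedback genes, Lef1 fell and none rose by limma (3 lower and 0 higher before adjustment, at p under 0.05). The 1 gene is a share of 12.5%. Over all genes, 3.09% fell and 2.90% rose by limma, and 10.4% were lower and 8.57% higher before adjustment. Lef1, which encodes a partner of β-catenin on DNA and is a target of it as well, had 6.77, 6.75 and 6.65 in Nkx2-1 high and 7.19, 7.34 and 7.41 in Nkx2-1 low. The gap between the groups was wider than the range within either, and Lef1 was 1.5-fold lower (-0.59 ± 0.08, adjusted p = 0.00337). Tcf7l1, the gene of a mostly repressive factor of the same family, had 7.63, 7.60 and 7.46 in Nkx2-1 high and 7.77, 7.96 and 7.91 in Nkx2-1 low. It missed the threshold (-0.32 ± 0.09, adjusted p = 0.0635). Tcf7l2 differed by 0.09 ± 0.08. The β-catenin gene Ctnnb1 averaged 9.62 ± 0.06 in Nkx2-1 high, against 9.54 ± 0.09 in Nkx2-1 low (SD, n = 3 each), with a 95% interval of the difference from -0.10 to 0.26, at the RNA level, which does not measure the stabilised protein.

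Feedback and target genes did not move as 1 group. Axin2, the gene of a β-catenin-induced scaffold that is widely used as a readout of the canonical branch, had 5.63, 5.68 and 5.95 in Nkx2-1 high and 5.99, 6.0 and 6.09 in Nkx2-1 low. All Nkx2-1 high values were lower, with replicate 3 just under the Nkx2-1 low samples (-0.27 ± 0.10, adjusted p = 0.158, and 0.0386 without Nkx2-1 high replicate 3). Nkd1, another feedback gene, differed by -0.18 ± 0.12 (adjusted p = 0.471) with overlapping groups. Sp5, a direct target of β-catenin that encodes a zinc-finger factor, had 4.92, 5.12 and 5.28 in Nkx2-1 high and 4.61, 4.56 and 4.63 in Nkx2-1 low. It rose 1.42-fold (0.50 ± 0.10, adjusted p = 0.0164), in the opposite direction to Dkk1, Lgr5 and Lef1, from a level near background. Leaving out Nkx2-1 high replicate 2 gave an adjusted p of 0.0691, Nkx2-1 low replicate 1 or 2 gave 0.0553 or 0.0663, and both samples numbered 3 gave 0.0636.

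**Figure D4:**
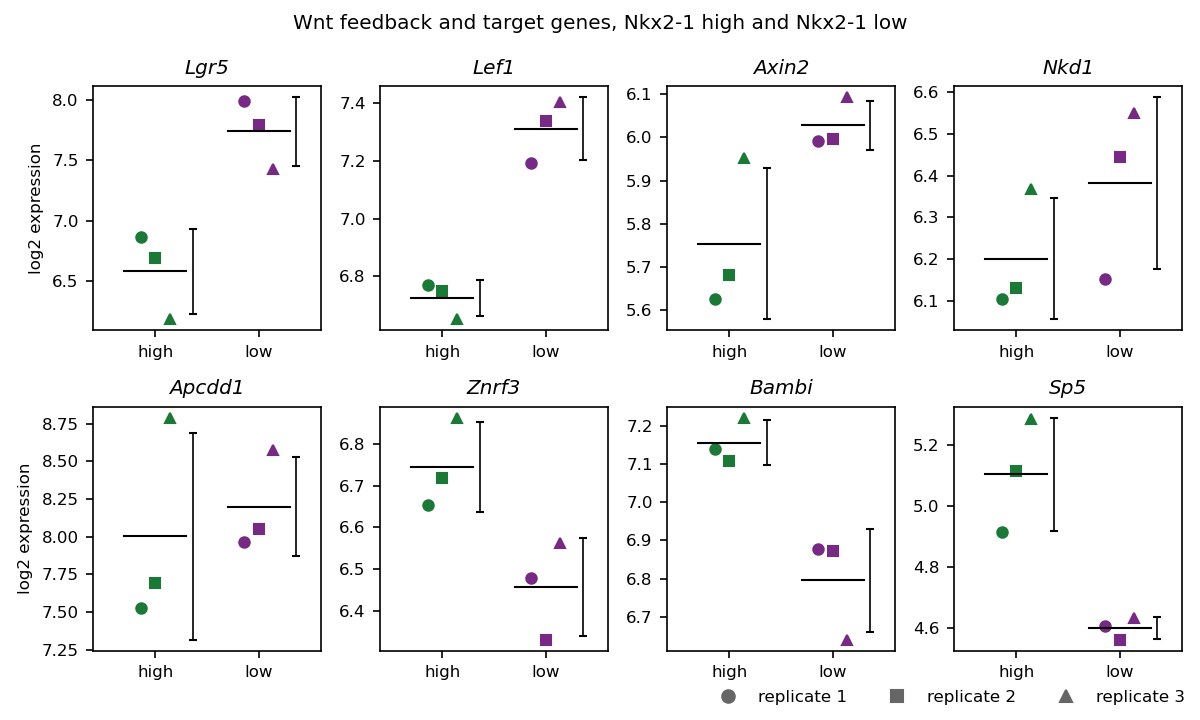
Log2 expression of 8 Wnt feedback and target genes in each sample, with Nkx2-1 high left of Nkx2-1 low in each panel and a vertical scale of its own in each panel; horizontal lines are group means and bars are ± SD (n = 3 each). Lgr5 and Lef1 fell, Sp5 and Bambi rose, and Axin2, Nkd1, Apcdd1 and Znrf3 did not pass the threshold.

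In a wider list of 27 measured genes known as Wnt targets in some tissue, 4 rose and 3 fell (25.9% called, median difference 0.05). Among all genes 6.0% were called. This list and those after it were chosen with earlier results of these data known, so their shares called do not test for enrichment. Besides Sp5, the genes that rose were Adamts5, which encodes a matrix protease (1.32 ± 0.16), Cd44, the gene of the hyaluronan receptor (0.85 ± 0.11), and Bambi, a pseudoreceptor gene that was named after its values were seen (0.36 ± 0.09, adjusted p = 0.0452). Those that fell were the homeobox gene Msx1 (-1.59 ± 0.11, 3.02-fold lower), the mesenchymal factor gene Twist1 (-0.95 ± 0.12) and Id2 (-0.46 ± 0.10). Msx1 and Twist1 also belong to the neural crest and mesenchyme markers above, and all 7 have inputs other than Wnt. Bambi lost the call whichever of the 6 samples was left out (adjusted p up to 0.136), and Id2 did so without Nkx2-1 high replicates 1 and 2 (0.0855 and 0.0868) and Nkx2-1 low replicates 1 and 3 (0.0741 and 0.0576). Ccnd1 and Myc, general growth genes on the list, were not called.

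Genes of planar polarity and non-canonical signalling were called in 5 of 31 cases (16.1%), 3 lower and 2 higher, with a median difference of -0.07. The share called over all genes was 6.0%. Ror2, which encodes a receptor of Wnt5a, had 8.02, 7.93 and 7.90 in Nkx2-1 high and 8.25, 8.34 and 8.24 in Nkx2-1 low. It fell with its ligand by a smaller amount (-0.32 ± 0.08, 1.25-fold, adjusted p = 0.0359), and the call was lost whichever of the 6 samples was left out (adjusted p up to 0.134). Daam2, the gene of a formin that binds Dishevelled, had 5.28, 5.55 and 4.95 in Nkx2-1 high and 6.03, 6.26 and 5.98 in Nkx2-1 low. It was 1.77-fold lower (-0.83 ± 0.14, adjusted p = 0.00921). Prickle2, of the core polarity genes, fell by 0.39 on the log2 scale (adjusted p = 0.0201, and 0.0744, 0.0536, 0.0647 and 0.0834 without Nkx2-1 high replicates 2 and 3 and Nkx2-1 low replicates 1 and 2). The kinase gene Camk2d rose (0.75 ± 0.13, adjusted p = 0.00807), and so did Dact2, whose protein binds Dishevelled (0.57 ± 0.12, adjusted p = 0.0247, and 0.0773, 0.103, 0.0889 and 0.0696 without Nkx2-1 high replicates 1 and 2 and Nkx2-1 low replicates 1 and 3). Ror1, Ryk, Vangl2 and Celsr1 were not called.

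Among 19 extracellular co-factors, 2 rose and 1 fell (15.8% called, against 6.0% of all genes). Tpbg, which encodes a cell-surface glycoprotein known in zebrafish to hold back canonical Wnt signalling at Lrp6, had 8.57, 8.34 and 8.02 in Nkx2-1 high and 7.13, 6.83 and 6.73 in Nkx2-1 low. The lowest Nkx2-1 high sample was well above the highest Nkx2-1 low sample, and Tpbg was 2.66-fold higher (1.41 ± 0.15, adjusted p = 5.48e-04). Sostdc1, the gene of a secreted antagonist of BMP and Wnt signals, had 7.94, 7.84 and 7.85 in Nkx2-1 high and 7.11, 6.98 and 7.68 in Nkx2-1 low. It rose 1.54-fold next to the threshold (0.62 ± 0.16, adjusted p = 0.0489, and 0.143, 0.127 and 0.0998 without Nkx2-1 high replicates 1, 2 and 3 and 0.153 and 0.154 without Nkx2-1 low replicates 1 and 2). It was also 0.0501 with the mean over a gene's rows and 0.0508 with all rows in 1 fit. Tpbg and Sostdc1 rose, whereas Dkk1, Dkk2, Dkk3 and Sfrp2 fell. The glypican gene Gpc6 fell (-0.39 ± 0.09, adjusted p = 0.0392, and 0.132, 0.106, 0.142 and 0.0962 without Nkx2-1 high replicates 1 and 2 and Nkx2-1 low replicates 2 and 3), with an adjusted p of 0.0868 after cyclic loess.

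**Figure D5:**
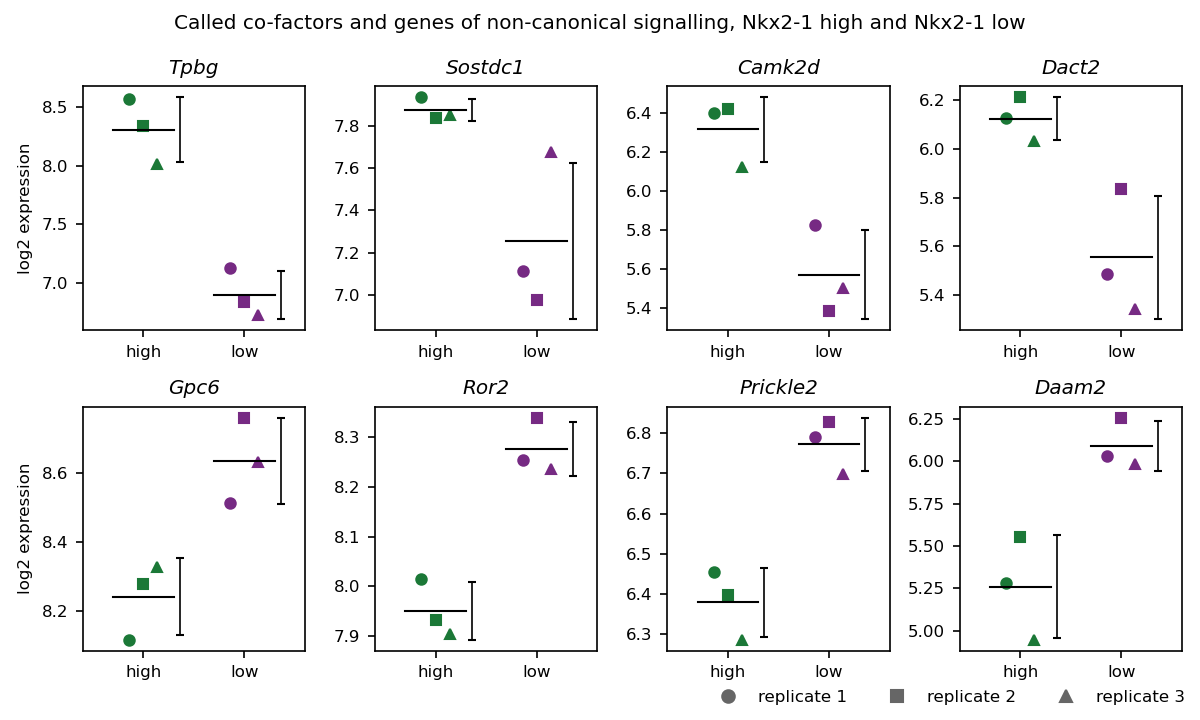
Log2 expression in each sample of the 3 called extracellular co-factor genes (Tpbg, Sostdc1 and Gpc6) and the 5 called genes of non-canonical signalling, with Nkx2-1 high left of Nkx2-1 low and a vertical scale of its own in each panel; lines are group means and bars are ± SD (n = 3 each). Tpbg is highest in Nkx2-1 high by the widest margin (8.02 to 8.57 against 6.73 to 7.13), and Sostdc1 in Nkx2-1 low replicate 3 lies near the Nkx2-1 high samples.

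Of 37 genes of the destruction complex, Dishevelled proteins and nuclear co-factors, 1 was called (2.70%, against 6.0% of all genes, median difference -0.01). It was Tle1, the gene of a Groucho-type co-repressor that binds Tcf factors, with 7.24, 7.39 and 7.42 in Nkx2-1 high and 6.88, 6.75 and 7.0 in Nkx2-1 low. Tle1 was 1.39-fold higher (0.47 ± 0.09, adjusted p = 0.0156, and 0.0727, 0.0514 and 0.0648 without Nkx2-1 high replicate 2 and Nkx2-1 low replicates 1 and 2). At an unadjusted p under 0.05, 3 of the 37 were higher and 2 lower, against 8.57% and 10.4% of all genes. Differences of the 36 genes that were not called ran from -0.32 to 0.36.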

How the data were processed

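Arrays of 3 Nkx2-1 high and 3 Nkx2-1 low samples were analysed, grouped by their titles. The log2 values were deposited by the authors, and RMA (background correction, quantile normalization and probe summary) is named in the submitters' processing notes. That the scale is log2 follows from RMA and the values' range; the arrays' genome build is not given in the sources used here. RNA was amplified with a whole-transcript system, per the labels' protocols, which can change relative signals. Of 29011 rows, 21789 had 1 symbol in GEO's platform annotation and were kept, with the highest-mean row for each of 999 genes with several rows (Wnt4 among the 65). All 65 Wnt genes matched the RefSeq table by Entrez ID. Background was read from 1210 receptor rows, and a fold is given only where both groups were above it.

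The test was limma's moderated one (version 3.58.1, under R 4.3.3; lmFit, then eBayes, with the 6 samples in 1 fit, no covariate beside group, Benjamini-Hochberg over 19938 genes). The fit was tested on 1 simulated set of 19938 genes, with 100 changed by 0.5 log2 units and another 100 by 1 log2 unit. It recovered 46% of the changes of 0.5 log2 units and 96% of those of 1 log2 unit. The unchanged genes of that set gave 5 false calls in all. A gene that did not pass can therefore still differ, above all by 0.5 log2 units or less. The members and lists were chosen with earlier results of these data known. Named were all called members, the 12 largest uncalled differences above background, a set of key genes and up to 6 called genes of each other list; further genes were named for their role after their values were seen. A few genes of the other lists were not used here. The alternatives were other normalizations, filters, variance models, row choices, thresholds, a replicate block and leaving out samples. The number of arrays limits the precision. No source used here gives scan dates, and batches were not tested. Same-numbered samples of both groups deviated from their group means with correlations across genes of 0.18, -0.0041 and 0.28 for numbers 1, 2 and 3, so the numbers were not taken as pairs.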

Additional observations from a re-analysis of the deposited data

How the results depend on the processing

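All 11 called Wnt genes kept their direction under the 17 alternatives. Of the 65 Wnt genes 8 to 14 passed, 8 to 11 of them from the 11, except in a test per gene without eBayes, where 1 passed (Sfrp2). The count that fell was 1 there, and the count that rose was 0 there and 1 at a threshold of 0.01 and without both samples numbered 3. Leaving out 1 sample gave 8 to 11 called Wnt genes, of which 1 to 2 rose and 7 to 10 fell. Without Nkx2-1 high replicate 3, Frzb and Fzd5 were lost and Axin2 and Wif1 were added, so 9 of the 11 passed. Without both samples numbered 3, Fzd2 and Fzd5 were lost and Sfrp1 and Wif1 were added. Sfrp1 and Tcf7l1 were added when only genes above background were tested (adjusted p = 0.0341 and 0.0347) and, together with the loss of Frzb, with a mean-variance trend and robust eBayes. Array weights added Sfrp1, Tcf7l1 and Wif1. With the replicate number as a block, 13 Wnt genes were called, the 11 and also Sfrp1 and Wif1, and 1470 of all genes; not every sample correlated best with its own number, and the block ended the call of Bambi (adjusted p = 0.0569) among the other pathway genes named. Over all genes, 1196 were called, 507 at a threshold of 0.01 (286 rose, 221 fell) and 89 without eBayes (49 rose, 40 fell), and 407 fell without both samples numbered 3. Leaving out 1 sample gave 624 to 1086 called genes, with 340 to 571 risen and 284 to 515 fallen. Nkx2-1 high replicates 1 and 2 left out in turn gave 772 and 624, and Nkx2-1 low replicates 1 and 2 gave 765 and 709. Among genes that were never called, signs turned for Lrp6 (0.0163 with cyclic loess, 0.00854 with array weights, 0.06 without both samples numbered 3, and -0.0426 to 0.0303 without 1 sample), for Wls (0.0238 with array weights and -0.137 to 0.0501 without 1 sample) and for Apcdd1 (-0.591 to 0.0405 without 1 sample). The causes of these changes were not tested, apart from the smaller number of samples or genes in the fits that leave some out.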
